A study of Homo sapiens with 6 samples.

Results

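Antisense RNAs named after the gene they oppose were counted in the human beta cell line EndoC-βH1, and each was set beside that gene, called its host here. The 365 members are the symbols that end in -AS with or without a number and hold 200 or more raw counts summed over the 6 libraries, out of 999 such symbols and 26485 symbols in all. The 634 antisense symbols under 200 counts include 225 with no count. The choice of members thus used the summed level and not the difference between the groups, so levels are given as a description and differences are tested. The rows just inside the limit were TIPARP-AS1 with 203 counts, DLGAP1-AS1 with 204 and TFAP2A-AS1 with 208, and those just outside were ZRANB2-AS1 with 195, RGMB-AS1 with 193 and CSTF3-AS1 with 192.

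The 3 libraries labelled sgZHX3-3 came from cells that carry lentiCRISPRv2 with a single guide against the first coding exon of ZHX3, with the genotype label ZHX3 KO. The 3 libraries labelled Empty came from cells that carry the same vector without a guide, with the genotype label WT. Both groups had been selected with an antibiotic and grown as stable lines, and the labels give no other treatment. The labels number the libraries of each group as biological replicates 1 to 3 and do not say whether they came from separately transduced lines, so p-values measure the spread between these libraries, and effects of losing ZHX3 and of that guide or line cannot be told apart.

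Antisense genes are transcribed from the strand opposite to another gene, and most give spliced, polyadenylated RNAs that code for no known protein. Many start head to head with their host, from a promoter region that fires in both directions. Others run into the tail of the host or lie inside it, where the RNAs are complementary over shared exons. Some act on the host by changing its transcription, chromatin, splicing or RNA stability, and many have no known effect on it. ZHX3, a zinc finger and homeobox protein of the nucleus, is known as a transcriptional repressor that binds the NF-Y subunit NF-YA.

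The libraries held between 45101454 and 61051884 counts. ZHX3 RNA stood at 177 ± 8.62 CPM (counts scaled to library size with TMM factors) in the libraries labelled sgZHX3-3 against 105 ± 4.19 CPM in Empty (SD, n = 3 each), and was thus higher in the group labelled as knockout. RNA levels do not check the knockout label, and the edit and the protein were not analysed here. Summed levels of 8 beta cell markers, none of them at 0, ranged from 9771 to 11230 CPM in sgZHX3-3 and from 8020 to 9834 CPM in Empty. INS, which makes up most of that sum, did not pass the test (log2 fold change 0.19, edgeR adjusted p = 0.219), and the other 7 rose with groups apart (IAPP at 0.61, MAFA at 0.60, ABCC8 at 0.49, SLC30A8 at 0.47, NKX6-1 at 0.41, PDX1 at 0.41 and PCSK1 at 0.23, with edgeR adjusted p from 7.08e-05 to 0.0490). The only immune marker, PTPRC, reached at most 0.0224 CPM in sgZHX3-3 and 0.0855 CPM in Empty. The 4 hormone markers of other islet cells summed to 8.40 to 10.5 CPM in sgZHX3-3 and 7.38 to 11.4 CPM in Empty. The 4 acinar markers summed to 42.1 to 45.2 CPM in sgZHX3-3 and 33.1 to 38.6 CPM in Empty, nearly all of it CPA1, which rose at 0.31 (edgeR adjusted p = 0.0145), while PRSS1, CELA3A and AMY2A held at most 1 count in any library. The 3 duct markers summed to 51.1 to 55.0 CPM in sgZHX3-3 and 47.7 to 54.1 CPM in Empty. Nearly all of that sum was KRT19, while CFTR and SPP1 held at most 10 counts in any library. The 3 fibroblast markers summed to 5.75 to 8.30 CPM in sgZHX3-3 and 5.72 to 6.31 CPM in Empty. None of these markers was at 0 in all libraries, and their part in the results was not tested. The endothelial markers PECAM1 and VWF summed to at most 0.0802 CPM in sgZHX3-3 and 0.0507 CPM in Empty. In bulk RNA fewer cells with an RNA and less of it per cell cannot be told apart.

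Of the 365 antisense RNAs, 8 rose and 6 fell at an adjusted p below 0.05 (edgeR quasi-likelihood test, adjusted over all 16199 genes tested), which is 3.84% of them, against 12.1% of all genes tested. With library totals as the only scaling 7 rose and 9 fell. By direction, 2.19% of the antisense RNAs rose and 1.64% fell, against 7.11% and 4.98% of all genes tested. Every one of the 365 passed the filter on low counts. Of the antisense symbols under 200 counts, 145 passed it, and 4 of these rose (2.76%) and 2 fell (1.38%), or 4.14%. At an unadjusted p below 0.05 there were 62 antisense RNAs of 365 and 28.1% of all genes. The libraries of the groups did not overlap for 80 antisense RNAs (21.9%), against 32.0% of all genes. Of their 342 distinct hosts tested, 36 rose and 14 fell, which is 14.6%, against 12.1% of all genes. By direction, 10.5% of hosts rose and 4.09% fell, against 7.11% and 4.98%, a difference not tested. The groups did not overlap for 34.5% of hosts, against 32.0% of all genes. With library totals alone 28 hosts rose and 29 fell, and of all genes 904 rose and 1272 fell, against 1151 and 807 with TMM factors. The balance of directions thus depended on the scaling, for the whole table as for the hosts.

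The antisense RNAs were scarce. Their median level was 3.37 CPM, against 46.0 CPM for the hosts and 23.3 CPM for all genes tested, and their log2 fold changes had a median standard error of 0.143, against 0.0710 for the hosts. Within classes of like depth the share called was also smaller, a difference not tested: 2.26% of the 177 antisense RNAs with 200 to under 1000 counts against 6.03% of all such genes, 3.55% of the 141 with 1000 to under 5000 counts against 11.2%, and 10.6% of the 47 with 5000 or more against 15.4%. In these classes the median standard error was 0.199 for antisense RNAs and 0.201 for all genes, 0.114 and 0.106, and 0.0708 and 0.0647. Per kilobase of exon, the median antisense RNA had 20.1% of the level of its host, and 67 of 337 pairs with lengths for both had more antisense than host RNA. All 365 together took 0.336% to 0.340% of the counts in sgZHX3-3 libraries and 0.334% to 0.345% in Empty libraries.

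The log2 fold changes of the antisense RNAs lay a little above 0. Their median was 0.10, with 257 of 365 (70.4%) above 0, against a median of 0.01 for hosts (52.6% above 0) and −0.0020 for all genes tested (49.5%). The median was 0.11 at 200 to under 1000 counts and 0.11 at 1000 to under 5000 counts, where all genes tested gave 0.03 and −0.01, and it was 0.03 at 5000 or more counts. By library, the median deviation from the mean of log2(CPM + 0.5) was 0.03, 0.03 and 0.05 in sgZHX3-3 libraries 1, 2 and 3, against 0.02 in Empty 1, −0.05 in Empty 2 and −0.06 in Empty 3. Empty 1 thus lay level with the sgZHX3-3 libraries, and the difference rested on Empty 2 and 3: with both left out the median of the antisense RNAs was 0.02. That fit sets the 3 sgZHX3-3 libraries against Empty 1 alone, assumes that a lone library varies as they do, and called 209 genes higher and 40 lower of 16640 tested, so a call lost in it shows little and the log2 fold change is given beside it. No test was made of this shift over the list.

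**Figure D1:**
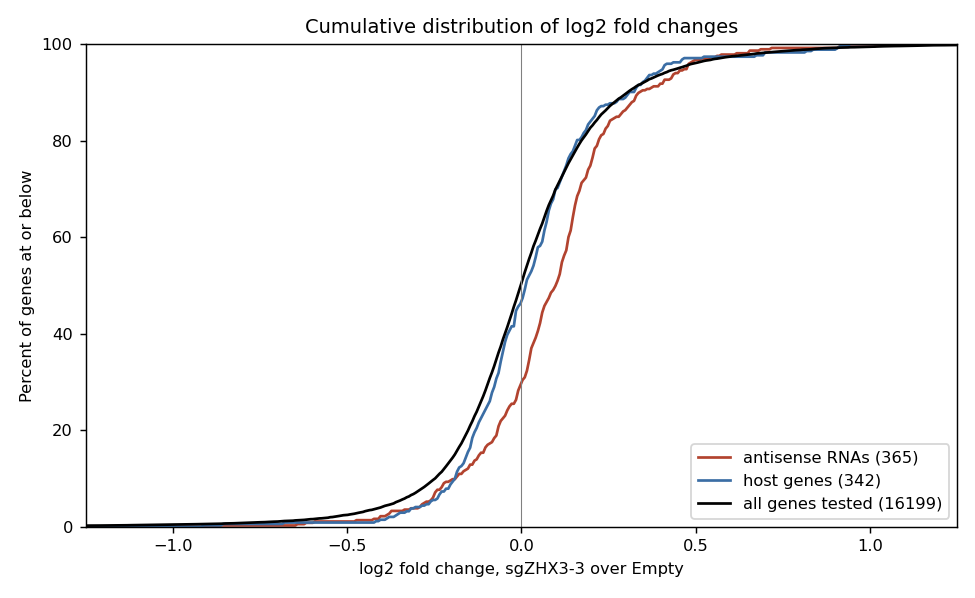
The curves give the percent of genes (vertical axis) at or below each log2 fold change of sgZHX3-3 over Empty (horizontal axis) for the 365 antisense RNAs, their 342 tested host genes and all 16199 genes tested. The antisense curve lies to the right of the others through its middle, with a median of 0.10 against 0.01 for hosts.

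The pair that moved furthest apart was PTPRG-AS1 and PTPRG, the gene of a receptor-type tyrosine phosphatase. PTPRG-AS1 fell and PTPRG rose, the one pair of 345 with both genes tested in which both were called in opposite directions. PTPRG-AS1 held 506, 517 and 658 counts in the sgZHX3-3 libraries against 604, 835 and 755 in the Empty libraries, or 10.9 ± 0.479 CPM in sgZHX3-3 against 14.1 ± 1.23 CPM in Empty (SD, n = 3 each). The groups did not overlap once scaled to library size, with a log2 fold change of −0.38 (SE 0.0879, edgeR adjusted p = 0.0154). PTPRG held 490, 485 and 474 counts in the sgZHX3-3 libraries against 252, 314 and 259 in the Empty libraries, or 9.52 ± 1.56 CPM in sgZHX3-3 against 5.32 ± 0.0578 CPM in Empty (SD, n = 3 each), a log2 fold change of 0.83 (SE 0.122, edgeR adjusted p = 0.00107). All 3 Empty libraries had more antisense than host counts by a wide margin, and sgZHX3-3 libraries 1 and 2 had close to equal counts of each, with library 3 between. The log2 ratio of antisense to host counts was 0.05, 0.09 and 0.47 in sgZHX3-3 against 1.26, 1.41 and 1.54 in Empty, a difference of −1.20 and the only one of 345 pairs as large as 1. The exact permutation test of this ratio gave p = 0.1, the smallest that 3 against 3 allows.

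On chromosome 3, PTPRG-AS1 is annotated from 62260865 to 62369330 (minus strand) and PTPRG from 61561569 to 62297613 (plus strand) in GENCODE 29 (GRCh38), so their tails overlap and their starts lie far apart. Host exons cover 26.8% of the antisense exons, and without a stated strand setting the reads there cannot be assigned. The call of PTPRG-AS1 was lost without sgZHX3-3 library 2 (adjusted p = 0.0897), Empty 2 (0.0642) or Empty 3 (0.102). Against Empty 1 alone neither gene passed, with PTPRG-AS1 at −0.25 (adjusted p = 0.372) and PTPRG at 0.82 (0.0670). Because their RefSeq starts lie 757376 bases apart, both RefSeq promoter windows (GRCh38.p14, 250 bases before to 50 after the start) are shown here, PTPRG-AS1 at chr3:62318898-62319197 on the minus strand and PTPRG at chr3:61561321-61561620 on the plus strand. The capitals mark TATAAA on the sense strand, which stands 1 time in the antisense window, beginning 23 bases after the annotated start, and 0 times in the host window.
PTPRG-AS1: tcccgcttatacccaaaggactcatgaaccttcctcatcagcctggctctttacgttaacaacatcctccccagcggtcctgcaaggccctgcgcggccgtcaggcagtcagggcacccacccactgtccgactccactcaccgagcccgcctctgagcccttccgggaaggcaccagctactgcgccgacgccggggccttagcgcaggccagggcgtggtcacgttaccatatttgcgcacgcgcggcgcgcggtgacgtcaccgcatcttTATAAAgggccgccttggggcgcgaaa
PTPRG: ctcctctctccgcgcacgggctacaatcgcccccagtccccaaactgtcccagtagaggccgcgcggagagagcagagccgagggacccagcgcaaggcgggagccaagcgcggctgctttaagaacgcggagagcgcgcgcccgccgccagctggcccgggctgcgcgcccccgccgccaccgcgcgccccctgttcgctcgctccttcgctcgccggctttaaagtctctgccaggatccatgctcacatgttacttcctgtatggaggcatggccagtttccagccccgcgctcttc

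In 5 pairs both genes rose, and 4 of them are described here. ID2-AS1 and ID2 were among them. ID2 encodes a helix-loop-helix protein without a DNA-binding region that holds other helix-loop-helix factors inactive. ID2-AS1 held 322, 391 and 462 counts in sgZHX3-3 libraries against 257, 353 and 252 in Empty libraries, or 7.57 ± 0.329 CPM in sgZHX3-3 against 5.53 ± 0.418 CPM in Empty (SD, n = 3 each), at a log2 fold change of 0.45 (SE 0.102, edgeR adjusted p = 0.0140). ID2 held 9628, 10436 and 12803 counts in sgZHX3-3 libraries against 8602, 9533 and 7678 in Empty libraries, or 212 ± 3.08 CPM in sgZHX3-3 against 167 ± 14.7 CPM in Empty (SD, n = 3 each), at 0.35 (SE 0.0623, edgeR adjusted p = 0.00396). Neither gene's groups overlapped in CPM, and their ratio differed by 0.10 with overlapping groups. The call of ID2-AS1 was lost without sgZHX3-3 library 2 (0.0771) or Empty 3 (0.0796). Against Empty 1 alone neither gene passed, with ID2-AS1 at 0.46 (0.159) and ID2 at 0.21 (0.191). The pair starts head to head on chromosome 2, with RefSeq starts 193 bases apart, and the promoter windows of both genes share 292 bases. The window of ID2, chr2:8681806-8682105 on the plus strand, is therefore shown for both, with CCAAT on either strand in capitals (ATTGG where it lies on the other strand), found 3 times.
ID2: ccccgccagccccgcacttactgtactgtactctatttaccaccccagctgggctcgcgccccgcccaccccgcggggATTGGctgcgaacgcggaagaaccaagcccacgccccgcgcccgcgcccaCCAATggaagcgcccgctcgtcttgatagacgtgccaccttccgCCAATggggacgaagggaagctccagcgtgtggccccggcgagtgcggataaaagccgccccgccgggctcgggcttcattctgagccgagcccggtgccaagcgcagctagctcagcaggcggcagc

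The next 3 pairs that rose were those of FOXD2, NAV2 and C15orf59. FOXD2-AS1 held 312, 311 and 362 counts in sgZHX3-3 libraries against 197, 230 and 253 in Empty libraries, at a log2 fold change of 0.54 (SE 0.127, edgeR adjusted p = 0.0166). FOXD2, a forkhead transcription factor gene, held 165, 219 and 280 counts in sgZHX3-3 libraries against 119, 138 and 93 in Empty libraries, at 0.91 (SE 0.151, edgeR adjusted p = 0.00219). They point away from each other with starts 1376 bases apart in GENCODE 29, and no annotated base is shared. NAV2-AS2 held 49, 38 and 62 counts in sgZHX3-3 libraries against 30, 22 and 21 in Empty libraries, at 1.02 (SE 0.277, edgeR adjusted p = 0.0321). NAV2, a neuron navigator gene that remodels the cytoskeleton, averaged 138 ± 12.1 CPM in sgZHX3-3 and 104 ± 8.64 CPM in Empty (SD, n = 3 each), at 0.41 (edgeR adjusted p = 0.00406). NAV2-AS2 lies inside NAV2, and 65.7% of its exonic bases face exons of NAV2, the highest share among the called antisense RNAs. Without a stated strand setting the reads there cannot be assigned, so its rise cannot be told apart from that of NAV2. C15orf59-AS1 held 78, 87 and 69 counts in sgZHX3-3 libraries against 43, 46 and 25 in Empty libraries, at 1.06 (SE 0.255, edgeR adjusted p = 0.0187). C15orf59, now called INSYN1 for its part at inhibitory synapses, averaged 12.5 ± 1.36 CPM in sgZHX3-3 and 9.07 ± 0.793 CPM in Empty (SD, n = 3 each), at 0.46 (edgeR adjusted p = 0.0142).

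In these 3 pairs the groups of each gene were apart, and the antisense RNAs depended on single libraries. FOXD2-AS1 was lost without sgZHX3-3 library 1 (adjusted p = 0.0557) or 2 (0.0591) or Empty 2 (0.0901). NAV2-AS2 was lost in every leave-one-out fit but that without Empty 1, with an adjusted p of up to 0.142. C15orf59-AS1 was lost without sgZHX3-3 library 1 (0.0564) or 2 (0.0882), or without Empty 2 (0.0624) or 3 (0.0916). Among the hosts C15orf59 was lost without sgZHX3-3 library 2 (0.0826), Empty 2 (0.0553) or Empty 3 (0.0761). NAV2 was lost in the fit with a gene span offset (0.171), which takes out a trend of fold change with gene length. Against Empty 1 alone none of the 6 genes passed (adjusted p from 0.112 to 0.507), with FOXD2-AS1 at 0.60, NAV2-AS2 at 0.59, C15orf59-AS1 at 0.74, FOXD2 at 0.74, NAV2 at 0.31 and C15orf59 at 0.34.

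THAP9-AS1 and THAP9, a gene related to DNA transposases, were the only pair in which both genes fell. THAP9-AS1 held 1382, 1507 and 1585 counts in sgZHX3-3 libraries against 1618, 2121 and 1810 in Empty libraries, or 29.2 ± 2.49 CPM in sgZHX3-3 against 35.8 ± 1.14 CPM in Empty (SD, n = 3 each), at a log2 fold change of −0.30 (SE 0.0727, edgeR adjusted p = 0.0199). THAP9 held 397, 456 and 463 counts in sgZHX3-3 libraries against 466, 661 and 534 in Empty libraries, or 8.57 ± 0.778 CPM in sgZHX3-3 against 10.7 ± 0.630 CPM in Empty (SD, n = 3 each), at −0.32 (SE 0.0968, edgeR adjusted p = 0.0486). The log2 ratio of antisense to host counts averaged 1.77 in sgZHX3-3 and 1.75 in Empty, the smallest difference (0.02) of the 7 pairs with both genes called. THAP9-AS1 was lost without sgZHX3-3 library 2 (0.0632) or 3 (0.0532), or without Empty 2 (0.0768) or 3 (0.103). THAP9 was lost in every leave-one-out fit but that without Empty 1 (adjusted p from 0.0713 to 0.180) and in the fit with a gene span offset (0.0718). Against Empty 1 alone neither passed, with THAP9-AS1 at −0.25 (0.327) and THAP9 at −0.22 (0.511). The RefSeq starts lie 181 bases apart and the transcripts overlap there, so this pair is shown as one that moved together from nearby windows. These windows share 0 bases. THAP9-AS1 has chr4:82900867-82901166 on the minus strand and THAP9 has chr4:82900485-82900784 on the plus strand, with CCAAT on either strand in capitals, found 2 times in each.
THAP9-AS1: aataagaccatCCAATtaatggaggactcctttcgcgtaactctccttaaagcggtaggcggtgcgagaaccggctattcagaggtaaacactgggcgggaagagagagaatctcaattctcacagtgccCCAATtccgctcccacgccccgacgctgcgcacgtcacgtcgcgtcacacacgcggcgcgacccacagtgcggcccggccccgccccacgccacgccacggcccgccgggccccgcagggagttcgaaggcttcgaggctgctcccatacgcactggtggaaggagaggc
THAP9: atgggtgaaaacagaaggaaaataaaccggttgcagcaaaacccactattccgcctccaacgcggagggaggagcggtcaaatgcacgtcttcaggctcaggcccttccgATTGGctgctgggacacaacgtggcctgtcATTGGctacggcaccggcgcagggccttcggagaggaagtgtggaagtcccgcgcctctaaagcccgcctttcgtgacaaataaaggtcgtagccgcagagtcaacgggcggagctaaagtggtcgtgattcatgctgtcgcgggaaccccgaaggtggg

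Over all RefSeq promoter windows, CCAAT on either strand was found in 35.7% of 27305, in 32.0% of the 284 antisense windows and in 33.8% of the 296 host windows. GGGCGG on either strand was in 44.6% of all windows, 60.9% of antisense windows and 66.2% of host windows. TATAAA on the sense strand was in 7.71% of all windows, 2.82% of antisense windows and 5.07% of host windows. Among called antisense RNAs with a window, CCAAT was in 1 of 6 that rose and in 2 of 5 that fell. The windows of FOXD2-AS1, NAV2-AS2, C15orf59-AS1, PTPRG-AS1 and PTPRG held it 0 times, and that of the host NAV2 held it 2 times. These matches describe letters only, and a link between them and the changes was not tested. Of 251 pairs with both windows on opposite strands, 104 had starts within 500 bases and 78 had windows that share bases, so the antisense and host windows are in part the same sequence.

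**Figure D2:**
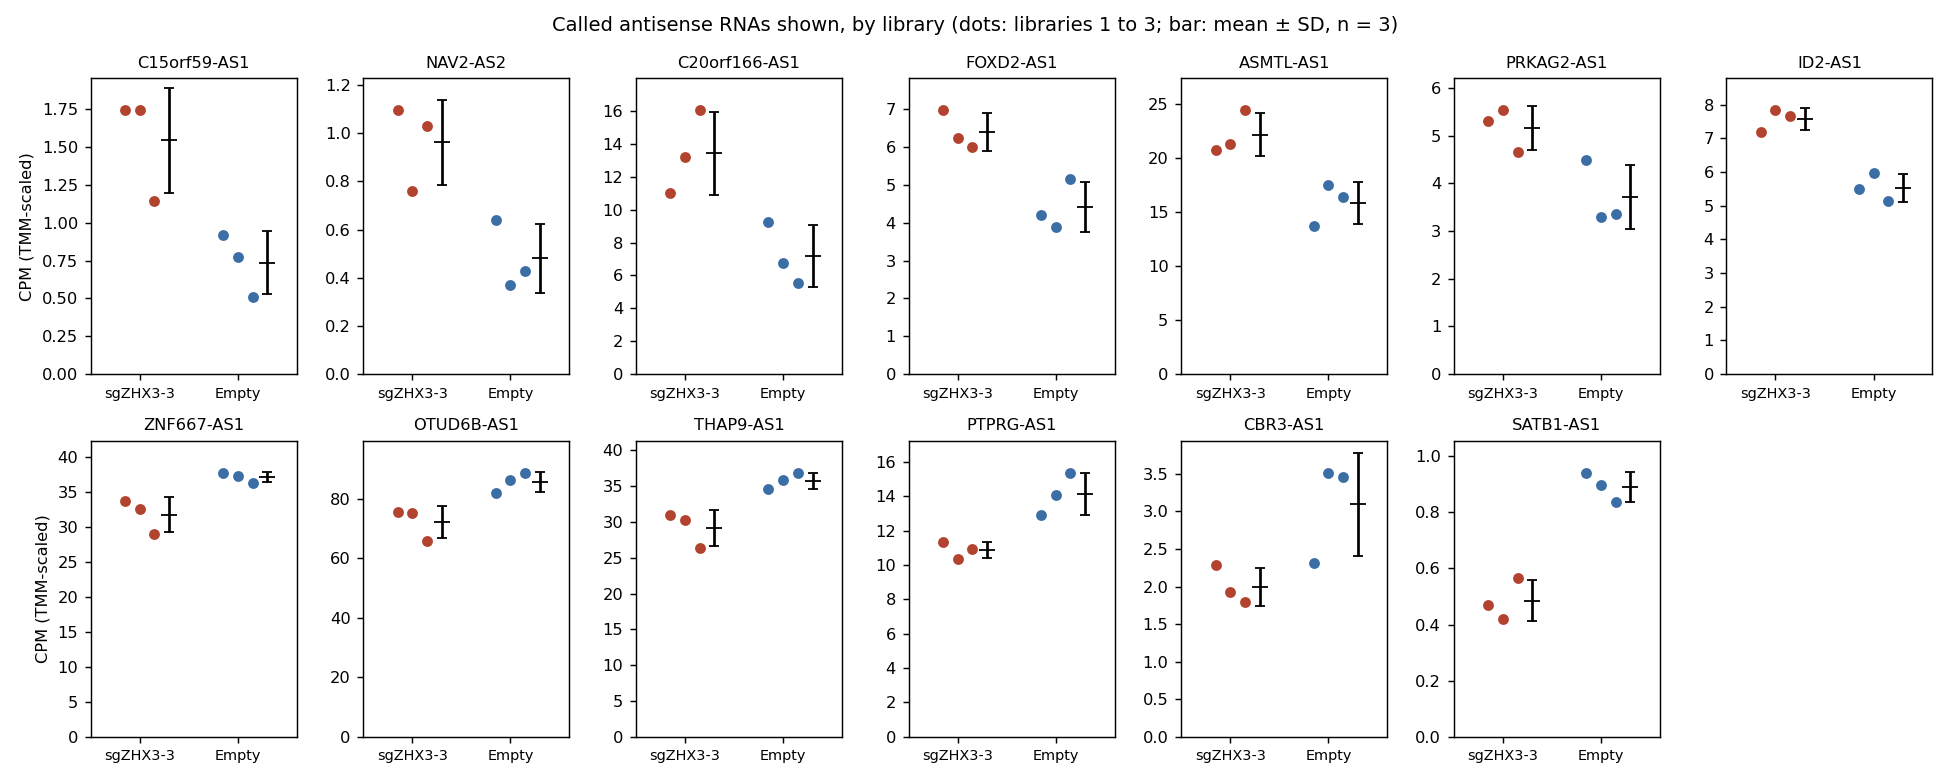
Each panel gives the CPM (vertical axis, TMM-scaled, starting at 0) of 1 of 13 of the 14 called antisense RNAs in the 3 sgZHX3-3 libraries on the left and the 3 Empty libraries on the right, with dots for libraries 1 to 3 and bars for the mean ± SD. No panel has overlapping groups, and in the PRKAG2-AS1 and CBR3-AS1 panels Empty 1 lies close to the nearest sgZHX3-3 library.

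In 6 pairs the antisense RNA changed and the host did not pass the test. ASMTL-AS1 rose, with 926, 1060 and 1470 counts in sgZHX3-3 libraries against 640, 1032 and 805 in Empty libraries, or 22.1 ± 1.99 CPM in sgZHX3-3 against 15.8 ± 1.94 CPM in Empty (SD, n = 3 each), at a log2 fold change of 0.48 (SE 0.0969, edgeR adjusted p = 0.00741). ASMTL, an acetylserotonin methyltransferase-like gene, was at 0.03 (adjusted p = 0.763). ASMTL-AS1 kept its call in each of the 15 alternatives run, with a highest adjusted p of 0.0332, and was the only one of the 14 that did. The antisense gene lies on chromosome X from 1401769 to 1414028 (plus strand), tail to tail with its host, in a region that the Y chromosome shares, where the handling of multi-mapping reads could change the counts.

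PRKAG2-AS1 rose to 5.16 ± 0.460 CPM in sgZHX3-3, against 3.71 ± 0.671 CPM in Empty (SD, n = 3 each), at 0.48 (edgeR adjusted p = 0.0454), and PRKAG2, a regulatory subunit gene of the energy sensor AMPK, was at 0.15 (adjusted p = 0.102). SATB1-AS1 fell, with 21, 21 and 34 counts in sgZHX3-3 libraries against 44, 53 and 41 in Empty libraries, at −0.86 (edgeR adjusted p = 0.0359), and SATB1, a chromatin organiser gene, was at −0.06 (adjusted p = 0.626). CBR3-AS1 fell, with 102, 96 and 108 counts in sgZHX3-3 libraries against 108, 208 and 170 in Empty libraries, at −0.64 (edgeR adjusted p = 0.0370). Its host CBR3, a carbonyl reductase gene with 80 counts over all 6 libraries, was at −0.42 (adjusted p = 0.532). OTUD6B-AS1 fell to 72.2 ± 5.45 CPM in sgZHX3-3, against 85.7 ± 3.43 CPM in Empty (SD, n = 3 each), at −0.25 (edgeR adjusted p = 0.0256), and the deubiquitinase gene OTUD6B was at −0.16 (adjusted p = 0.198). ZNF667-AS1 fell to 31.7 ± 2.45 CPM in sgZHX3-3, against 37.1 ± 0.731 CPM in Empty (SD, n = 3 each), at −0.23 (edgeR adjusted p = 0.0498), and the zinc finger gene ZNF667 was at −0.13 (adjusted p = 0.268). PRKAG2 passed without Empty 1 (0.0498) and OTUD6B without sgZHX3-3 library 1 (0.0473). In all 6 pairs of this kind, ASMTL included, the host's log2 fold change had the sign of its antisense RNA and was smaller in size. Taking pairs in which the antisense RNA passed and the host did not favours that smaller size.

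These 5 calls were close to the threshold. PRKAG2-AS1 was lost in every leave-one-out fit but that without Empty 1 (adjusted p from 0.0534 to 0.180), with library totals as the only scaling (0.0549) and in the fit with a gene span offset (0.0596). SATB1-AS1 was lost without any 1 of the 6 libraries, with adjusted p from 0.0521 to 0.141, and in DESeq2 (0.0643). CBR3-AS1 was lost without sgZHX3-3 library 2 (0.125) or 3 (0.128), without Empty 2 (0.163) or 3 (0.160), and in limma-voom (0.0501). OTUD6B-AS1 was lost without the same 4 libraries (0.0690, 0.0667, 0.0956 and 0.130). ZNF667-AS1 was lost in every leave-one-out fit but that without sgZHX3-3 library 1 (adjusted p from 0.0543 to 0.153), with RLE size factors (0.0512) and in the fit with a gene span offset (0.0860). Against Empty 1 alone none of the 5 passed (adjusted p from 0.279 to 0.724), with PRKAG2-AS1 at 0.20, SATB1-AS1 at −0.94, CBR3-AS1 at −0.21, OTUD6B-AS1 at −0.18 and ZNF667-AS1 at −0.25.

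C20orf166-AS1 (chromosome 20 from 62544343 to 62551526, minus strand), which has no host row here, had the largest rise among called antisense RNAs with over 1000 counts. It held 493, 657 and 967 counts in sgZHX3-3 libraries against 434, 398 and 272 in Empty libraries, or 13.4 ± 2.52 CPM in sgZHX3-3 against 7.18 ± 1.91 CPM in Empty (SD, n = 3 each), at a log2 fold change of 0.91 (SE 0.184, edgeR adjusted p = 0.0121). Its call was lost without Empty 2 (0.0644), and against Empty 1 alone it was at 0.54 (0.210).

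Over the 345 pairs with both genes tested, 7 had both genes called, 6 of them in the same direction. Another 43 had a called host and an antisense RNA that did not pass, and 6 the reverse. The log2 fold changes of antisense RNA and host had the same sign in 206 pairs (59.7%), with Pearson r = 0.33 and Spearman rho = 0.32 across pairs, which share the same 6 libraries and, for 3 hosts with a pair of antisense RNAs each, the host. Of the antisense RNAs of 36 hosts that rose, 32 were above 0, with a median of 0.24. Of those of 14 hosts that fell, 7 were above 0, with a median of −0.04. Where the host was not called, 202 of 295 were above 0, with a median of 0.08.

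**Figure D3:**
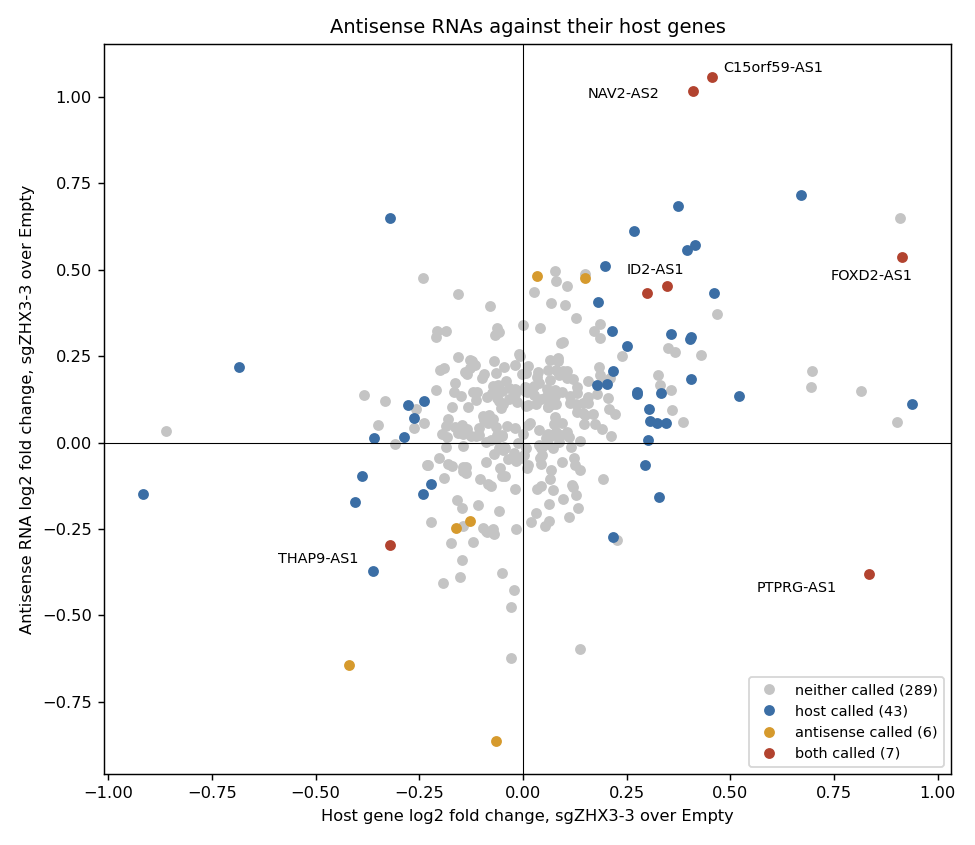
Each point is 1 of 345 pairs, with the log2 fold change (sgZHX3-3 over Empty) of the host gene on the horizontal axis and of its antisense RNA on the vertical axis, coloured by which gene was called. Of the 7 pairs with both called (6 of them named), 5 lie upper right, THAP9-AS1 lower left and PTPRG-AS1 alone lower right.

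Hosts with small adjusted p of their own, picked after their values were seen, stood beside antisense RNAs with wide errors. TSPEAR, which encodes a secreted protein of teeth and hair, rose to 52.0 ± 0.0920 CPM in sgZHX3-3, against 32.7 ± 2.49 CPM in Empty (SD, n = 3 each), at 0.67 (edgeR adjusted p = 7.08e-05). TSPEAR-AS1 held 73, 62 and 44 counts in sgZHX3-3 libraries against 32, 50 and 30 in Empty libraries, at 0.72 with overlapping groups (SE 0.291, edgeR adjusted p = 0.126). ZMIZ1, a transcriptional coregulator gene, rose to 274 ± 6.57 CPM in sgZHX3-3, against 205 ± 0.599 CPM in Empty (SD, n = 3 each), at 0.42 (edgeR adjusted p = 0.000236), with ZMIZ1-AS1 at 0.57 (SE 0.185, edgeR adjusted p = 0.0620). The growth factor gene IGF2 rose to 105 ± 3.17 CPM in sgZHX3-3, against 76.2 ± 4.59 CPM in Empty (SD, n = 3 each), at 0.46 (edgeR adjusted p = 0.000492), with IGF2-AS at 0.43 (SE 0.175, edgeR adjusted p = 0.136). CACNA1C, the pore subunit gene of an L-type calcium channel, rose to 155 ± 3.98 CPM in sgZHX3-3, against 119 ± 6.20 CPM in Empty (SD, n = 3 each), at 0.37 (edgeR adjusted p = 0.00121), with CACNA1C-AS1 at 0.68 (SE 0.265, edgeR adjusted p = 0.112). In all 4 pairs the antisense value was as high as the host's or nearly so, with a standard error several times the host's. Among these RNAs ZMIZ1-AS1 (adjusted p = 0.0244), IGF2-AS (0.00330) and CACNA1C-AS1 (0.0112) passed without Empty 1, TSPEAR-AS1 passed without sgZHX3-3 library 3 (0.0350), and IGF2-AS passed in DESeq2 (0.0393). CACNA1C was lost in the fit with a gene span offset (0.130), and against Empty 1 alone it was at 0.32 (0.0697).

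Of the 14 hosts that fell, 3 were picked after their values were seen, and their antisense RNAs lay below 0 without passing the test. These 3 do not stand for the rest: of the antisense RNAs of all 14, 7 were above 0, among them RASSF1-AS1, described below. DNAJC3, a co-chaperone gene of the endoplasmic reticulum, fell to 171 ± 6.23 CPM in sgZHX3-3, against 224 ± 7.16 CPM in Empty (SD, n = 3 each), at −0.39 (edgeR adjusted p = 0.000636), with DNAJC3-AS1 at −0.10 (SE 0.0787, edgeR adjusted p = 0.453). The sliding clamp gene PCNA fell to 235 ± 16.1 CPM in sgZHX3-3, against 311 ± 14.2 CPM in Empty (SD, n = 3 each), at −0.40 (edgeR adjusted p = 0.00123), with PCNA-AS1 at −0.17 (SE 0.150, edgeR adjusted p = 0.495). UGDH, the gene of UDP-glucose dehydrogenase, fell to 122 ± 6.77 CPM in sgZHX3-3, against 230 ± 52.0 CPM in Empty (SD, n = 3 each), at −0.92 (edgeR adjusted p = 0.0163), with UGDH-AS1 at −0.15 (edgeR adjusted p = 0.258). UGDH was lost without sgZHX3-3 library 2 (0.0513) or 3 (0.0797), without Empty 2 (0.0662) and with no filter on low counts (0.0611). DNAJC3 was at −0.33 (0.0527) against Empty 1 alone, and PCNA at −0.33 (0.0785).

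The ratio of antisense to host counts within a library does not depend on how libraries are scaled. After PTPRG, large differences in the mean log2 ratio were 0.95 for RASSF1, −0.87 for TTN, −0.81 for SATB1, −0.79 for FLG and 0.74 for UGDH, and the groups were apart in all of these but FLG. For UGDH the log2 ratio was −3.71, −3.71 and −3.57 in sgZHX3-3 libraries against −3.97, −4.53 and −4.73 in Empty libraries. For TTN, the gene of the giant muscle protein titin, it was 2.60, 2.71 and 2.96 in sgZHX3-3 libraries against 3.76, 3.31 and 3.83 in Empty libraries. TTN rose to 2.33 ± 0.383 CPM in sgZHX3-3, against 1.19 ± 0.387 CPM in Empty (SD, n = 3 each), while TTN-AS1 was at 0.11 (edgeR adjusted p = 0.456), and TTN exons cover 55.1% of the antisense exons. TTN itself was at 0.94 (edgeR adjusted p = 0.0179) and was lost without sgZHX3-3 library 1 (0.0574) or 2 (0.0680), or without Empty 3 (0.0861), and against Empty 1 alone it was at 1.27 (0.0649). RASSF1, a tumour suppressor gene, fell at −0.32 (edgeR adjusted p = 0.00471) and RASSF1-AS1 was at 0.65 (edgeR adjusted p = 0.0852), with RASSF1 exons over 83.4% of it. For TTN and RASSF1 too, reads in the shared exons cannot be assigned without a stated strand setting. RASSF1 was at −0.30 against Empty 1 alone (0.148). Each of these ratios, FLG aside, had an exact permutation p of 0.1, the smallest 3 against 3 allows, so none of them could pass a threshold of 0.05.

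**Figure D4:**
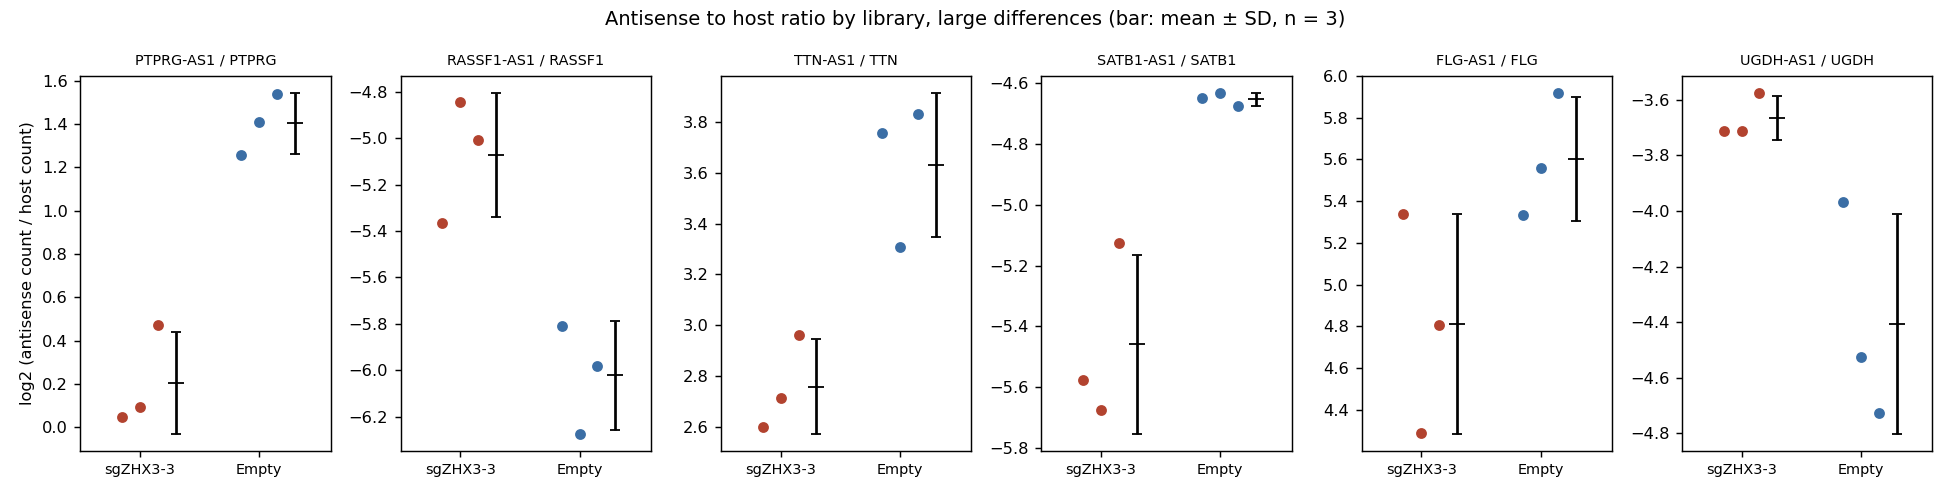
The panels show the log2 ratio of antisense to host counts (vertical axis, each panel on its own scale) in the 3 sgZHX3-3 libraries on the left and the 3 Empty libraries on the right, for 6 of the pairs with large differences, with dots for libraries and bars for the mean ± SD. The PTPRG panel has the widest gap, with sgZHX3-3 libraries from 0.05 to 0.47 and Empty libraries from 1.26 to 1.54.

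GENCODE 29 placed 350 pairs. Of these, 138 overlapped head to head, 71 pointed away from each other without overlap, 63 overlapped tail to tail, 50 had the antisense gene inside the host, and 28 had the host inside the antisense gene. Starts were within 1000 bases in 157 pairs. Among head to head pairs 4 antisense RNAs rose and 3 fell, among divergent pairs 1 rose and 1 fell, among tail to tail pairs 1 rose and 1 fell, inside the host 1 rose and 0 fell, and around the host 0 rose and 1 fell. Median log2 fold changes of antisense RNA and host were 0.12 and −0.0047 in head to head pairs, 0.05 and 0.01 in divergent pairs, 0.05 and 0.0015 in tail to tail pairs, and 0.13 and 0.11 where the antisense gene lay inside the host. Across pairs, Pearson r between the log2 fold changes was 0.32 in 135 head to head pairs, 0.48 in 71 divergent pairs, 0.04 in 60 tail to tail pairs, 0.35 in 48 with the antisense gene inside and 0.47 in 23 with the host inside. The differences between arrangements were not tested.

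**Figure D5:**
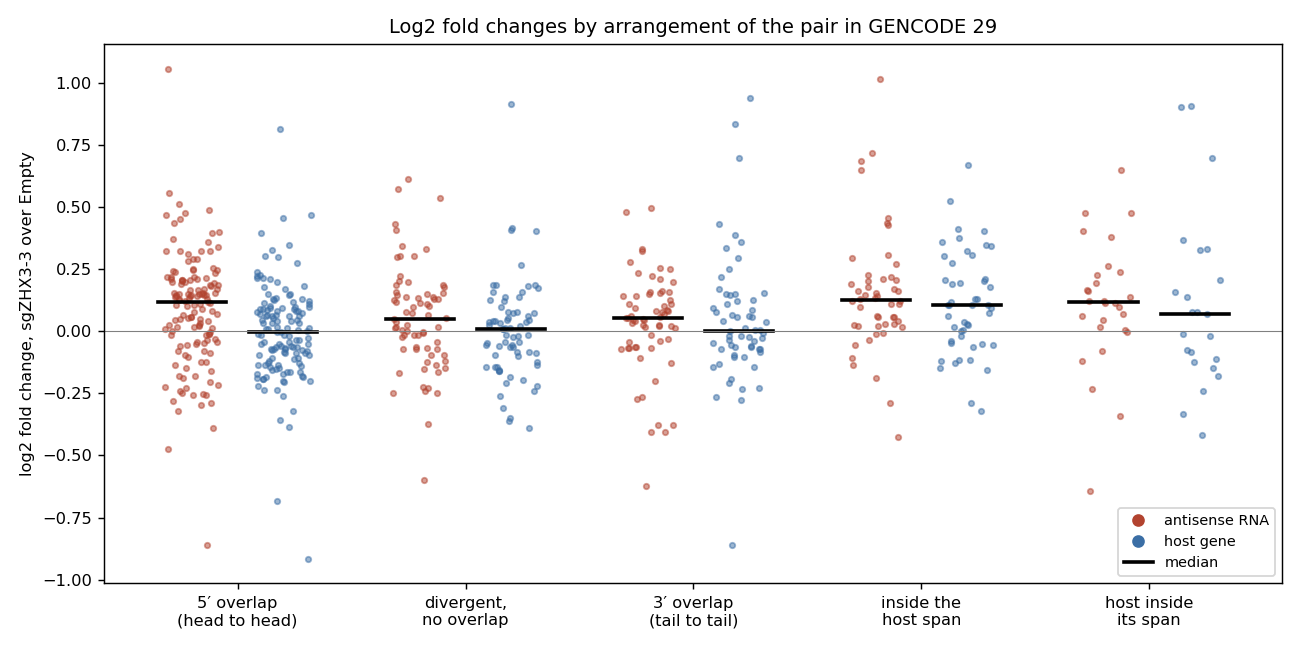
Points are the log2 fold changes (vertical axis, sgZHX3-3 over Empty) of antisense RNAs and of their hosts, grouped by the arrangement of the pair in GENCODE 29 (horizontal axis), with a line at each median. The antisense medians run from 0.05 to 0.13, and the host medians are near 0 except where one gene lies inside the other (0.11 and 0.07).

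With no test made, the median span was 48577.5 bases for hosts that rose, 27290 bases for those that fell and 38058.5 bases for those not called, against 30756.5 bases over all genes tested. In the fit with a gene span offset, an alternative chosen after seeing the data, 29 hosts rose and 11 fell, and 7 antisense RNAs rose and 7 fell.

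Of the 8 most abundant antisense RNAs, 7 did not pass the test. LRRC75A-AS1 stood at 326 ± 13.9 CPM in sgZHX3-3 and 332 ± 7.59 CPM in Empty (SD, n = 3 each), at −0.03 (edgeR adjusted p = 0.749), and FGD5-AS1 at 262 ± 13.7 CPM in sgZHX3-3 and 275 ± 3.95 CPM in Empty (SD, n = 3 each), at −0.07 (edgeR adjusted p = 0.411). These 2 held 17.6% of all antisense counts. PSMD5-AS1 was at −0.05, PSMA3-AS1 at −0.06, OIP5-AS1 at 0.02, NIPBL-AS1 at 0.01 and SSTR5-AS1 at 0.18, with edgeR adjusted p from 0.185 to 0.921, while OTUD6B-AS1 fell. SSTR5-AS1, beside a somatostatin receptor gene, passed without Empty 1 (0.0329).

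PDX1-AS1 lies next to PDX1, the homeodomain activator of the insulin gene. It was at 22.5 ± 2.73 CPM in sgZHX3-3 and 19.8 ± 2.81 CPM in Empty (SD, n = 3 each), at 0.18 (edgeR adjusted p = 0.295). PDX1 was at 711 ± 42.4 CPM in sgZHX3-3 and 537 ± 76.8 CPM in Empty (SD, n = 3 each), at 0.41 (edgeR adjusted p = 0.0115), a call lost without sgZHX3-3 library 3 (0.0643), Empty 2 (0.0528) or Empty 3 (0.0581), and against Empty 1 alone it was at 0.19 (0.325). Of other well studied antisense RNAs, ZEB1-AS1 was at 0.04, DLX6-AS1 at 0.11, SLC16A1-AS1 at −0.10, MCM3AP-AS1 at 0.24 and NNT-AS1 at −0.01, with edgeR adjusted p from 0.103 to 0.931. GATA6-AS1 was listed at 0 in every library.

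Lists of genes that act on antisense and other noncoding RNA, or that bind CCAAT, held 9 called genes among 87 tested (10.3%), near the 12.1% of all genes tested. The RNA exosome degrades unstable nuclear transcripts. Among 13 genes of its subunits and cofactors, 0 rose and 1 fell (EXOSC9, at −0.31, edgeR adjusted p = 0.0364), with a median log2 fold change of −0.03. Of 16 genes of nuclear exosome adaptors and their partners, ZFC3H1 rose at 0.19 (edgeR adjusted p = 0.0414) and RBM7 fell at −0.25 (edgeR adjusted p = 0.0364). The median of these 16 was −0.07. Of 12 other genes of RNA decay, DIS3L2, an exonuclease gene, rose at 0.22 (edgeR adjusted p = 0.0346) and 0 fell. Of 20 tested genes that edit, cut or sense double-stranded RNA, AGO1 rose at 0.18 (edgeR adjusted p = 0.0492) and the sensor gene IFIH1 fell at −0.35 (edgeR adjusted p = 0.0168). Of 23 genes of early termination and the Integrator complex, INTS1 rose at 0.26 (edgeR adjusted p = 0.0404) and INTS7 fell at −0.19 (edgeR adjusted p = 0.0413). Of the 3 NF-Y subunit genes, whose product binds CCAAT, NFYC fell at −0.26 (edgeR adjusted p = 0.0188), while its own antisense RNA NFYC-AS1 was at 0.07 (edgeR adjusted p = 0.705). Each of these 9 calls was lost without Empty 2, Empty 3 or sgZHX3-3 library 2, with adjusted p from 0.0650 to 0.219, and other single libraries ended some of them too.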

How the data were processed

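RNA of 6 libraries was measured. The kit, NEBNext Ultra Directional, keeps the strand, per the labels' protocols, and STAR, featureCounts and hg38 are named, per the submitters' processing notes. Not given in the sources used here are versions, annotation, strand setting and how multi-mapping reads were handled. The authors deposited unnormalised counts for each symbol and library, per the file headers.

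All else was computed from these counts. The filterByExpr function of edgeR 4.0.16 (minimum count 10, minimum total 15) kept 16199 of 26485 symbols. TMM factors were 0.984 to 1.02. Groups were compared with edgeR's quasi-likelihood test (robust, group only), with Benjamini-Hochberg adjustment over all genes tested and calls at 0.05. CPM uses TMM library sizes, and the log2 ratio of antisense to host uses counts plus 0.5. Variation between replicates (common coefficient) came to 6.91%. The test was tried on simulated data. R 4.3.3, limma 3.58.1, DESeq2 1.42.0, Python 3.11.15 and matplotlib 3.10.9 were also used.

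Symbols were matched to GENCODE 29 (GRCh38): 357 members were found, 43 of them through an older symbol. Of all members, 360 have a host row in the table. RefSeq promoter windows (GRCh38.p14) were matched by symbol or older symbol for 284 members and 296 hosts. An older symbol was not used where its current name has a row of its own. The promoters shown are those of pairs with both genes called and starts within 500 bases, and of the pair called in opposite directions. The members, gene lists and tests were chosen with earlier results of these data known. A few items that this rule would name are not reported here. Otherwise named were all called antisense RNAs with their hosts, pairs with both genes called, the 8 most abundant antisense RNAs, those beside the limit of 200 counts, a set of well studied antisense RNAs, and up to 4 genes per list, and hosts named beyond this were chosen after their values were seen. Alternatives were RLE factors, library totals, other filters, DESeq2, limma-voom, a replicate block, libraries left out and other limits. The gene span offset was added after seeing the data.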

Additional observations from a re-analysis of the deposited data

How the results depend on the processing

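In the main fit 8 antisense RNAs rose and 6 fell, 36 hosts rose and 14 fell, and 7 pairs had both genes called. Library totals as the only scaling turned the balance: 7 antisense RNAs rose and 9 fell, and 28 hosts rose and 29 fell. The host median was then −0.03 against 0.01. All genes tested turned likewise, with 904 higher and 1272 lower against 1151 and 807, and a median of −0.04 against −0.0020. With Empty 2 and 3 both left out, which leaves 1 Empty library and called 209 genes higher and 40 lower of 16640, 1 antisense RNA rose and 0 fell, 6 hosts rose and 1 fell, and 0 pairs had both called. At an adjusted p below 0.01 the counts were 2 and 0 antisense RNAs, 15 and 5 hosts, and 0 pairs. Leaving out single libraries gave 3 to 23 antisense RNAs that rose and 0 to 6 that fell, 15 to 54 hosts that rose and 5 to 34 that fell, and 0 to 17 pairs. The high ends came without Empty 1 (29 antisense RNAs called, 12 of them among the 14). That fit called 20.1% of all genes tested, against 12.1% in the main fit. Without Empty 2 the antisense counts were 3 and 0, without Empty 3 they were 4 and 0, and without sgZHX3-3 library 2 they were 3 and 0. Those fits called 4.83%, 4.01% and 4.31% of all genes, in that order. Without sgZHX3-3 library 3 the antisense counts were 8 and 1 (7.65% of all genes called), and without sgZHX3-3 library 1 they were 6 and 6 (10.7%). The share of all genes called thus moved with the left-out library too. RLE size factors, no filter on low counts, a filter of 1 CPM, DESeq2, limma-voom and limits of 100 or 500 counts changed none of these counts by over 1.5 times. Among the named antisense RNAs, hosts and list genes, no called gene changed sign in any alternative run. With the replicate number as a block, 4 antisense RNAs rose and 0 fell, 21 hosts rose and 6 fell, and 1 pair had both called. That fit called 4.66% of all genes. Beside the losses named above, it ended the calls of FOXD2-AS1, ID2-AS1, NAV2-AS2, PTPRG-AS1 and THAP9-AS1 (edgeR adjusted p from 0.0531 to 0.0785). It also ended those of CBR3-AS1, OTUD6B-AS1, PRKAG2-AS1, SATB1-AS1 and ZNF667-AS1 (0.0849 to 0.116). The host THAP9 (0.118) and all called list genes were lost in it too. The labels do not say whether the replicate numbers pair the samples. Correlations between libraries cannot decide it, because deviations from the mean add up to 0 within each group of 3. Same-numbered libraries deviated from their group means with correlations of −0.138, 0.0685 and −0.142. Between libraries of unlike number the correlations ran from −0.149 (sgZHX3-3 library 3 with Empty 2) to 0.233 (sgZHX3-3 library 3 with Empty 1). The cause of the moves in the counts of calls was not tested. For the 91 members with the fewest counts the median standard error was 0.227, and small differences in them were not detectable at this depth.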

Other observations

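Of the host genes, 15 had too few counts to be tested although their antisense RNAs were expressed, so these RNAs have no pair comparison. NPSR1-AS1 held 5643 counts over all libraries, beside 1 count of NPSR1, a neuropeptide receptor gene. It was at 20.1 ± 2.41 CPM in sgZHX3-3 and 16.5 ± 1.03 CPM in Empty (SD, n = 3 each), with a log2 fold change of 0.28 and groups apart (edgeR adjusted p = 0.0633; 0.0343 in DESeq2). SAPCD1-AS1 held 1515 counts and was at 4.23 ± 0.559 CPM in sgZHX3-3 and 5.59 ± 0.402 CPM in Empty (SD, n = 3 each), at −0.41 with groups apart (edgeR adjusted p = 0.0531, and 0.0396 in DESeq2), beside 0 counts of SAPCD1. FGD5-AS1, with 83092 counts, stood beside 8 counts of FGD5. Neither NPSR1-AS1 nor SAPCD1-AS1 passed the edgeR test, and these RNAs were singled out after their values were seen.

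Of the 145 antisense symbols under 200 counts that were tested, 4 rose and 2 fell (4.14%), against 3.84% of the 365 with more counts. None of the 6 antisense RNAs that share a host with another passed the test. Their log2 fold changes were 0.06 for PTOV1-AS1 and −0.06 for PTOV1-AS2, 0.03 for CTBP1-AS and 0.13 for CTBP1-AS2, and 0.02 for PAXIP1-AS1 and −0.20 for PAXIP1-AS2, with edgeR adjusted p from 0.278 to 0.927.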
